A study of Homo sapiens with 30 samples.

Results

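Host transcripts of small RNAs were followed in cells of the human melanoma line A375. The members were all genes whose only annotated symbol is GAS5, is SNHG with a number (small nucleolar RNA host gene), or begins with MIR and ends with HG (microRNA host gene). This rule used names and no measured value, and it took 48 of the 19775 genes with a symbol of their own: GAS5, 11 SNHG genes and 36 MIR host genes, on 72 of 41097 probe sets with 1 symbol. Of the 48 genes 30 had 1 probe set, 13 had 2, 4 had 3 and 1 had 4. The cells received 650 nM MLN4924 or 0.065% DMSO, the vehicle control, and RNA was taken after 1, 2, 4, 8 or 24 h, with 3 arrays (Affymetrix HG-U133 Plus 2.0) in each of the 10 groups. MLN4924 (pevonedistat) inhibits the enzyme that activates the ubiquitin-like protein NEDD8. All groups are of 1 cell line. The labels do not say whether the 3 samples of a group were separate cultures, so p-values reflect only how these samples vary, and that variation may be technical.

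Small nucleolar RNAs (snoRNAs) guide the chemical modification of ribosomal RNA, and most human ones are cut from introns of a host transcript. In SNHG genes the spliced host encodes no known large protein, and several such transcripts are degraded quickly by nonsense-mediated decay while the snoRNA persists as a protein-bound particle. MicroRNA host transcripts likewise carry hairpins that Drosha and Dicer cut into mature microRNAs, which then pair through their seed with messenger RNAs. The arrays measured host transcripts through their 3' regions, not the mature small RNAs, and a probe set's level says nothing of the amount of snoRNA or microRNA.

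By gene identifier, 47 of the 48 members were found in the RefSeq annotation of GRCh38.p14. An annotated snoRNA lies within 7 of the 12 SNHG and GAS5 members, and an annotated microRNA within 35 of the 36 MIR hosts. Mature microRNAs of 4 hosts that were called in the comparisons below are printed here, with the seed (bases 2 to 8) in capitals. They are a selection from RefSeq on GRCh38.p14 and not all products of these loci. MIR10526, also within MIR100HG, is not printed. The 3 microRNAs printed for MIR100HG have the same seeds as the 3 for MIR99AHG, and both loci yield the identical miR-125b-5p.
miR-100-5p (MIR100HG): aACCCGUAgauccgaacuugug
miR-99a-5p (MIR99AHG): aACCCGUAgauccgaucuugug
let-7a-5p (MIR100HG): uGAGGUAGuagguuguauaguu
let-7c-5p (MIR99AHG): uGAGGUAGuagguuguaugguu
miR-125b-5p (MIR100HG and MIR99AHG): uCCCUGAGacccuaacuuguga
miR-31-5p (MIR31HG): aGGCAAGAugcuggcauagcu
miR-1915-3p (MIR1915HG): cCCCAGGGcgacgcggcggg

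Arrays of one group correlated at 0.9833 to 0.9898 over all probe sets, and no 2 arrays held identical values. Medians of the deposited signals ran from 32.6 to 44 between arrays, and the 3' to 5' signal ratio from 1.144 to 1.744 for ACTB and from 0.838 to 1.015 for GAPDH, 2 controls of RNA integrity. The highest ratios of both were those of arrays 1 and 2 of DMSO at 2 h (ACTB 1.744 and 1.681, GAPDH 1.015 and 0.969). The comparison at 2 h rests on these arrays. Of 14 melanocyte and melanoma markers 13 were measured and 10 had a mean signal above the median of all values. SOX10 averaged 729 and MITF 300, while the pigment genes PMEL (24.4), MLANA (17.2) and TYRP1 (16.5) lay below the median of 36.6. The pigment gene TYR (49.7) lay above it. The summed signal of these markers averaged 7737 in DMSO and 5683 in MLN4924 at 24 h. AXL (2160) and MIA (1940) had the highest mean signals of the list. The epithelial list held CDH2, N-cadherin, which melanoma cells also express. Without it 5 of 9 markers, all keratins, were above the median, and their sum was 4254 in DMSO and 7526 in MLN4924 at 24 h, while EPCAM (10.7) and CDH1 (6.92) were below. Above the median were also 4 of 9 fibroblast markers (sum 544 in DMSO and 363 in MLN4924 at 24 h), 3 of 5 blood markers (HBB, ITGAM and CD3E, 269 and 238) and 1 of 5 endothelial markers (PECAM1, 164 and 163), while PTPRC (10.9) and VWF (8.77) were below. The part of these shifts in the results below was not tested. In bulk RNA fewer cells of a kind and less RNA per cell cannot be told apart.

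Most of the host transcripts were dim. Mean signals over the 30 arrays ran from 3.24 to 2358, with 18 members above the median signal and 30 at or below it. Above the median were GAS5, 5 of 11 SNHG genes and 12 of 36 MIR hosts. SNHG17 had the highest mean signal and MIR663AHG the lowest, although signals of different probe sets do not order the amounts of their transcripts. All changes are given as log2 differences of log2(signal + 32), which compresses the changes of dim genes, with the standard error (SE) of the fit. A gene was called at a Benjamini-Hochberg adjusted p under 0.05 in limma, adjusted over all 19775 genes.

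The host transcripts showed their first call at 4 h and most calls at 24 h, with rises and falls side by side. No member was called at 1 h or 2 h in limma, where 7 and 4 members had an unadjusted p under 0.05 and where 0.00506% and 0.551% of all genes were called. With p-values adjusted over the 5 comparisons together, 3 members were called at 1 h. At 4 h 1 member was called, SNHG33, against 3.39% of all genes. At 8 h 6 of 48 members (12.5%) were called, 3 higher and 3 lower with MLN4924, beside 15.2% of all genes (8.37% higher and 6.81% lower). With median centring of the arrays the split at 8 h was 4 higher and 2 lower, and 3 members were called without array 2 of MLN4924 at 8 h or with the 8 h arrays fitted alone. At 24 h 10 of 48 (20.8%) were called, 4 higher and 6 lower, beside 34% of all genes (15.9% higher and 18.1% lower). The median change of the 48 members at 24 h was 0.008 and that of all genes 0.003.

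Calls lay among the brighter members. Of the 18 members above the median signal 10 (55.6%) were called at 24 h, beside 50.4% of the 12214 genes above it. Of the 30 dimmer members 0 were called at 24 h in limma, and 0 had an unadjusted p under 0.05. The split used the mean over all 30 arrays, treated ones included, so it was not independent of the calls. MIR570HG, called at 24 h, had group means of 27.3 to 42.2 in DMSO and of 49.5 to 52.6 in MLN4924 from 4 h on. In all, 11 members were called in at least 1 of the 5 comparisons and 37 in none. By an F test over the 5 times 12 members (25%) differed at some time, beside 32.6% of all genes. That test added MIR17HG (adjusted p = 0.0389) and MIR924HG (adjusted p = 0.0162), which were called at no single time, and left out MIR31HG (adjusted p = 0.146), which was called at 24 h.

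**Figure D1:**
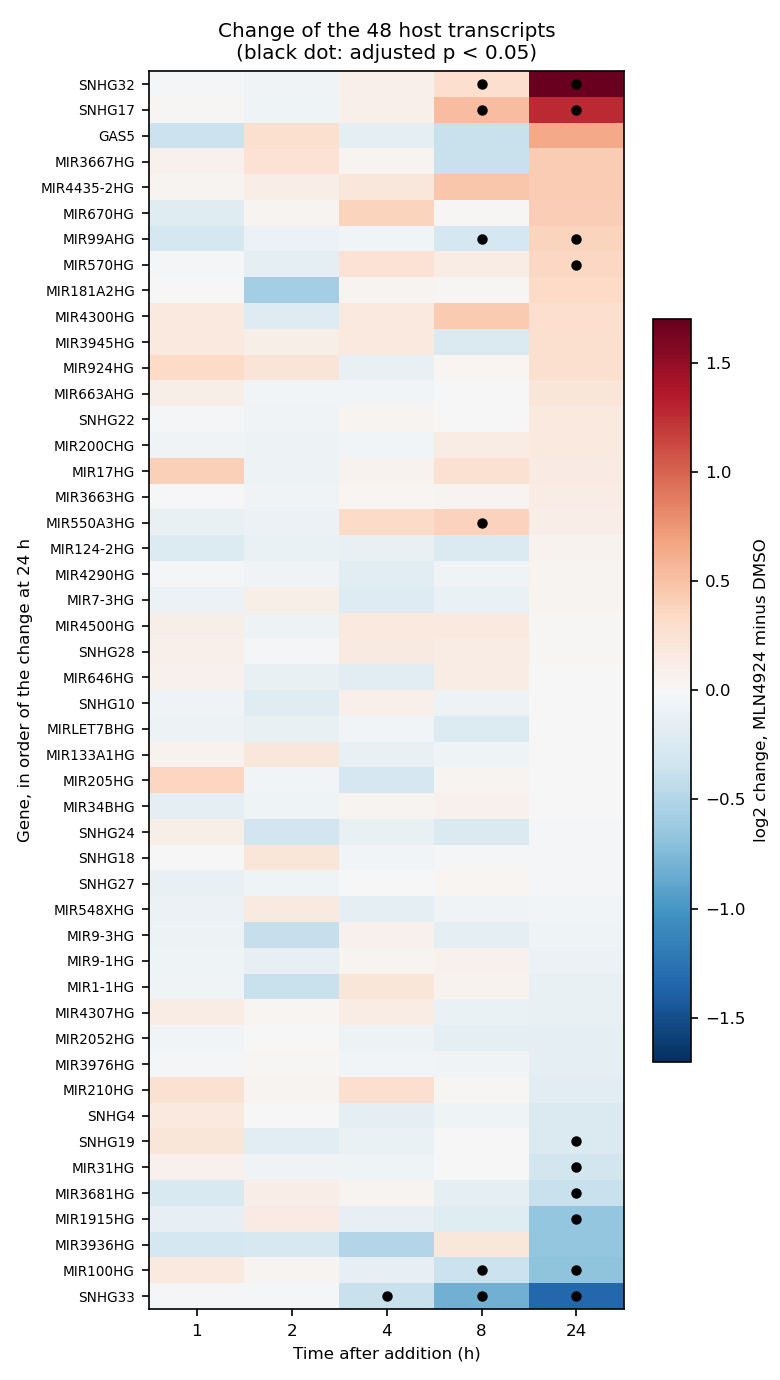
The log2 change (MLN4924 minus DMSO, colour) of each of the 48 host transcripts (rows, ordered by the change at 24 h) at 1, 2, 4, 8 and 24 h (columns), from 3 arrays per group, with a black dot where the adjusted p was under 0.05. SNHG32 and SNHG17 stand at the top and SNHG33 and MIR100HG at the bottom, and no dot lies at 1 h or 2 h.

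**Figure D2:**
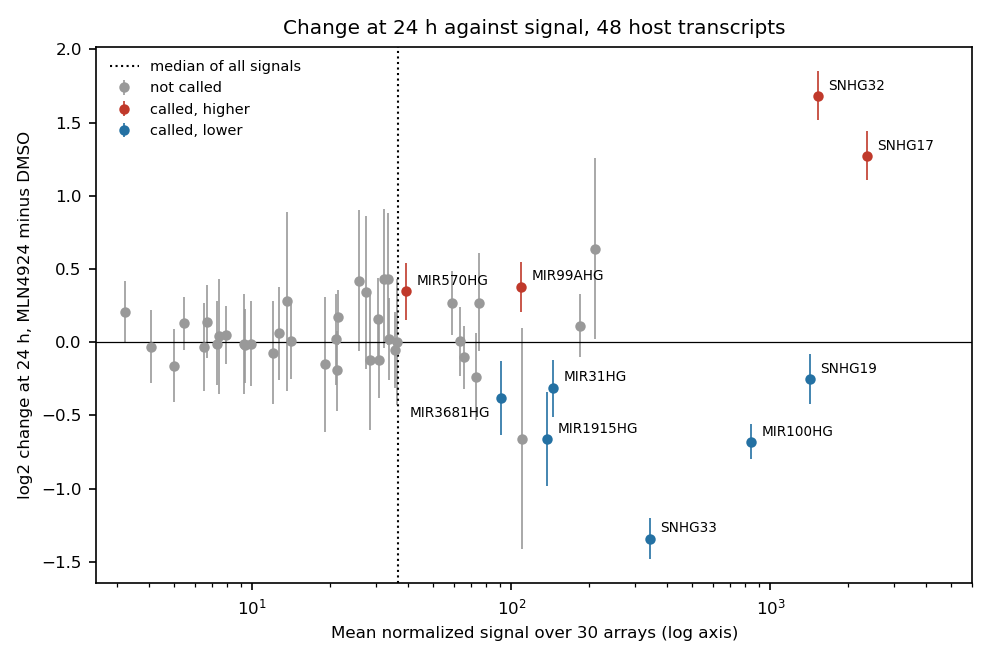
The log2 change at 24 h with its 95% confidence interval (vertical axis) against the mean normalized signal over 30 arrays (horizontal log axis) for the 48 host transcripts, coloured by call. All 10 called members lie to the right of the dotted line at the median of all signals, 36.6. The mean signal includes the treated arrays and so is not independent of the calls.

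SNHG32, which holds SNORD48 and SNORD52 (chr6:31834916-31839761, + strand, GRCh38.p14), showed the largest change of the 48. It has 1 probe set, 220755_s_at, of a type (_s_at) whose probes can match more than 1 transcript. Its signals at 24 h were 1563, 1436 and 1497 in DMSO and 4796, 4702 and 5176 in MLN4924. Every treated array at 24 h lay above every array of the other groups, and the change was 1.68 (SE 0.08, adjusted p = 1.04e-14). At 8 h the signals were 1094, 977 and 1096 in DMSO and 1180, 1438 and 1261 in MLN4924. The groups did not overlap, and the change was 0.28 (SE 0.08, adjusted p = 1.35e-02). When array 2 of DMSO or array 2 of MLN4924 at 8 h was left out, or the 8 h arrays were fitted alone, the call at 8 h was lost, with changes of 0.23, 0.2 and 0.28. Earlier arrays of both treatments lay between 938 and 1153. The effect at 24 h exceeded that at 8 h by 1.40 (SE 0.11, adjusted p = 1.07e-09). In DMSO alone SNHG32 was higher at 24 h than at 1 h by 0.41 (adjusted p = 3.95e-04). This comparison shares the DMSO arrays of 24 h with that of MLN4924 at 24 h, as do all comparisons of DMSO over time below.

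SNHG17, the host of SNORA71A to SNORA71D (chr20:38420588-38435328, - strand), rose at 8 h and again at 24 h. Its signals at 8 h were 1659, 1922 and 1940 in DMSO and 2744, 2684 and 2521 in MLN4924. At 24 h they were 1557, 1686 and 1722 in DMSO and 4012, 3830 and 4296 in MLN4924. At both times all treated arrays lay above all DMSO arrays, by 0.52 (SE 0.08, adjusted p = 3.99e-05) at 8 h and 1.27 (SE 0.08, adjusted p = 2.87e-12) at 24 h. In DMSO its signal was lower at 24 h than at 1 h, by a log2 change of -0.39 (adjusted p = 7.32e-04), whereas that of SNHG32 was higher. The effect grew by 0.75 (SE 0.11, adjusted p = 1.91e-05) from 8 h to 24 h. These values are from 225857_s_at, which is also of the _s_at type. A second probe set, 65588_at, designed from the same source sequence, changed by 0.30 at 8 h and 1.30 at 24 h. Both changes were called among all probe sets with 1 symbol.

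SNHG33 (chr3:183447608-183456013, + strand), which spans SNORA63D and SNORA63E, was lower with MLN4924 than in DMSO at each of the 3 later times. At 4 h its signals were 383, 399 and 400 in DMSO and 283, 324 and 282 in MLN4924. At 8 h they were 361, 380 and 369 in DMSO and 182, 192 and 216 in MLN4924. At 24 h they were 523, 529 and 517 in DMSO and 167, 203 and 193 in MLN4924. The treated arrays lay below the DMSO arrays at all 3 times. The changes were -0.38 (SE 0.07, adjusted p = 8.84e-04) at 4 h, -0.82 (SE 0.07, adjusted p = 3.05e-09) at 8 h and -1.34 (SE 0.07, adjusted p = 5.20e-14) at 24 h. Fitted on the 4 h arrays alone, the call at 4 h was lost (adjusted p = 0.0774). At 1 h and 2 h all 12 arrays lay between 349 and 402. In DMSO the signal was higher at 24 h than at 1 h by 0.47 (adjusted p = 1.29e-05), and the DMSO arrays of 24 h were the highest of all 30. From 8 h to 24 h the DMSO mean rose from 370 to 523, while the treated mean was 196 and then 188. The second probe set of SNHG33, with signals of 223, 186 and 262 in DMSO and 37.6, 89.3 and 81.1 in MLN4924 at 24 h, changed by -1.37 (SE 0.21, adjusted p = 1.68e-05 over all probe sets with 1 symbol).

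SNHG19 (chr16:2154782-2155358, - strand), the host of SNORD60, showed a small difference at 24 h. Its signals then were 1760, 1689 and 1701 in DMSO and 1396, 1428 and 1498 in MLN4924, without overlap. The change was -0.25 (SE 0.08, adjusted p = 1.91e-02). The call was lost when array 1 of DMSO or array 1 or 2 of MLN4924 at 24 h was left out, on the signals as deposited, with median centring and with p-values adjusted over the 5 comparisons together, where changes ran from -0.28 to -0.13 over all settings. In DMSO SNHG19 was higher at 24 h than at 1 h (1213, 1315 and 1272) by 0.43 (adjusted p = 3.99e-04), and the treated arrays of 24 h lay between those levels. Its single probe set is of a type (_x_at) whose probes can match other transcripts.

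The one probe set that lists GAS5 alone had no call after adjustment at any time. GAS5 (chr1:173863901-173869045, - strand) holds 11 annotated snoRNAs. At 24 h its signals were 225, 186 and 155 in DMSO and 257, 378 and 306 in MLN4924, which did not overlap, and the change was 0.64 (SE 0.30, 95% interval 0.02 to 1.26, unadjusted p = 0.0423, adjusted p = 0.107 in limma). At 1 h the DMSO arrays alone ran from 130 to 336. Among the other SNHG genes, SNHG4 was above the median signal without a call (change at 24 h -0.24, adjusted p = 0.234), and SNHG10, SNHG18, SNHG22, SNHG24, SNHG27 and SNHG28 were below it, with changes at 24 h between -0.03 and 0.17.

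**Figure D3:**
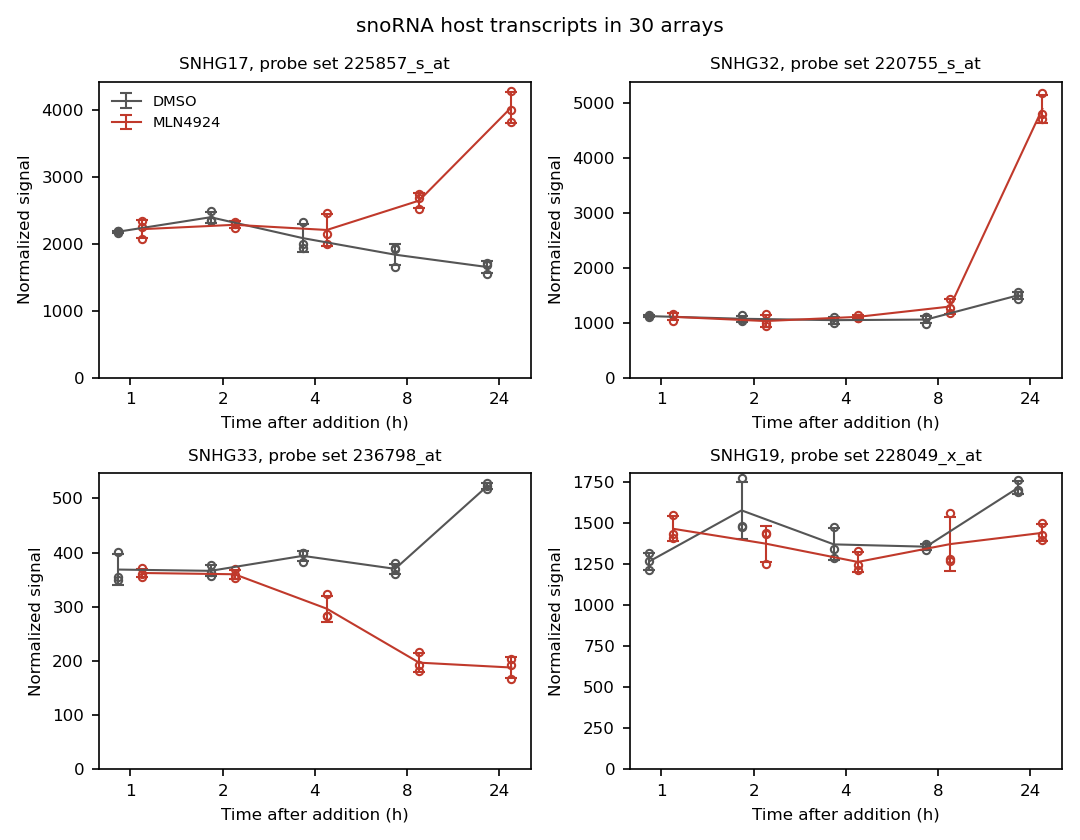
Normalized signal (vertical axis, from 0) of SNHG17, SNHG32, SNHG33 and SNHG19 by time after addition (horizontal axis, in h) for DMSO (grey) and MLN4924 (red), with open circles for the 3 arrays per group, lines through the means and bars for the SD. At 24 h the treated arrays of SNHG32 lie between 4702 and 5176 against 1436 to 1563 in DMSO, and those of SNHG33 between 167 and 203 against 517 to 529.

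The windows around the annotated starts of these 4 called SNHG genes are printed to set the pair that was higher with MLN4924 than in DMSO at 24 h (SNHG17, SNHG32) beside the pair that was lower (SNHG19, SNHG33). Each runs from 250 bases before to 50 bases from the start on the transcript's strand, from RefSeq on GRCh38.p14: chr20:38435279-38435578 for SNHG17, chr6:31834666-31834965 for SNHG32, chr16:2155309-2155608 for SNHG19 and chr3:183447358-183447657 for SNHG33. Capitals mark the first 5 bases of the transcript. Many snoRNA hosts belong to the terminal oligopyrimidine class, which starts with a C and a run of pyrimidines. SNHG32, from the first pair, and SNHG19, from the second, both start with a C followed by 4 pyrimidines, and SNHG17 and SNHG33 do not.
SNHG17: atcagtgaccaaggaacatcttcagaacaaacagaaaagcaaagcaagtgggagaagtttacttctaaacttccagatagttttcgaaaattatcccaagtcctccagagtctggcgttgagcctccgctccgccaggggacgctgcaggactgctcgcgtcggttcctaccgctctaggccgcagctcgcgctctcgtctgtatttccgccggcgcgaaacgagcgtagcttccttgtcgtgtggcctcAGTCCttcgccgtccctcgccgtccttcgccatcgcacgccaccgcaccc
SNHG32: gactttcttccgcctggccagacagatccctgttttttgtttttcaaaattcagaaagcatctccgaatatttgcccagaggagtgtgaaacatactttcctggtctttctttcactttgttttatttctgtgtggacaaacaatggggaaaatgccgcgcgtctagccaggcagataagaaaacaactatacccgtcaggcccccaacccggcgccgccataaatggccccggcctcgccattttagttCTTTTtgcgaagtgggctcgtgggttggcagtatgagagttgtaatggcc
SNHG19: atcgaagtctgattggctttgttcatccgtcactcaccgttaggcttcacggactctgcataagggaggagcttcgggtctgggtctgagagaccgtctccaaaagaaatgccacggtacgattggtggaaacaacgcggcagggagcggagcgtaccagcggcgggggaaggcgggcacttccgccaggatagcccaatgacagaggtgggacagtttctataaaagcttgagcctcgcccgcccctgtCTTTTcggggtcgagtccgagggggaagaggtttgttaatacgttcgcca
SNHG33: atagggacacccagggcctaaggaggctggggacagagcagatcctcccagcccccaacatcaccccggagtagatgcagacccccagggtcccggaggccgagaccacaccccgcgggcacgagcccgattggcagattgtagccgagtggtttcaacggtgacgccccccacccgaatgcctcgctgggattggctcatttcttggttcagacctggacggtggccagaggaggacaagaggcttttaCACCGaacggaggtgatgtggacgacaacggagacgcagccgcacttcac
Such a start was present in 4 of the 37 members with a window (10.8%: SNHG4, SNHG18, SNHG19 and SNHG32) and in 4.07% of all 35116 windows. Searched on both strands, the E-box CACGTG was in 0 of 37 member windows and 7.26% of all, and the cAMP response element TGACGTCA in 1 (MIR9-1HG) and 1.85%. The ATF4 element TGATGNAA was in 2 (MIR3681HG and MIR99AHG) and 3.62%, and the antioxidant response element core TGACNNNGC, which shares its first 4 letters with TGACGTCA, in 5 and 13.3%. None of the 4 printed windows held any of these motifs. A match describes letters and is not a binding site.

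MIR100HG, the host of miR-100, let-7a-2 and miR-125b-1 (chr11:122028329-122422871, - strand), rose over time in DMSO and was lower with MLN4924 at 8 h and 24 h. In DMSO its signals were 719, 765 and 711 at 1 h, 875, 855 and 875 at 8 h and 1409, 1503 and 1454 at 24 h. In MLN4924 they were 799, 890 and 794 at 1 h, 638, 715 and 645 at 8 h and 880, 925 and 875 at 24 h. The DMSO arrays of 24 h thus lay above all others, and the treated arrays of 24 h (875 to 925) lay near those of 1 h (711 to 890 in both treatments). The change with MLN4924 was -0.37 (SE 0.06, adjusted p = 5.94e-05) at 8 h and -0.68 (SE 0.06, adjusted p = 7.02e-10) at 24 h. DMSO at 24 h exceeded DMSO at 1 h by 0.96 (SE 0.06, adjusted p = 7.04e-11), the largest such change of the 48 members. The effect at 24 h was below that at 8 h by a log2 change of -0.32 (SE 0.08, adjusted p = 6.26e-03). The other probe set of MIR100HG had signals from 1.31 to 21.6 and no call. With the mean over both probe sets the changes were -0.21 at 8 h, no longer called, and -0.35 at 24 h, and the difference between both effects was -0.14 and no longer called. The call at 8 h was also lost with median centring.

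MIR99AHG (chr21:16070488-16631727, + strand), which carries miR-99a, let-7c and miR-125b-2, gave opposite answers on 2 of its 3 probe sets. On the brightest, 239999_at, signals at 8 h were 104, 113 and 102 in DMSO and 76.7, 75.4 and 88.3 in MLN4924. At 24 h they were 114, 107 and 91.3 in DMSO and 156, 140 and 137 in MLN4924. The treated arrays were thus below DMSO at 8 h (change -0.30, SE 0.08, adjusted p = 1.23e-02) and above it at 24 h (change 0.38, SE 0.08, adjusted p = 6.79e-04). The difference between both effects was 0.68 (SE 0.12, adjusted p = 1.07e-04). On 1559901_s_at the signals at 24 h were 105, 87.6 and 85.4 in DMSO and 81.7, 73 and 66.8 in MLN4924. There the treated arrays were lower (change -0.24, SE 0.08, adjusted p = 2.93e-02 over all probe sets with 1 symbol). In DMSO alone the probe sets opposed each other too, with -0.43 (adjusted p = 5.23e-04) on 239999_at and 0.46 (adjusted p = 2.61e-04) on 1559901_s_at from 1 h to 24 h. The remaining probe set changed by 0.16 at 24 h without a call. With the mean over the 3 probe sets MIR99AHG was called at neither time, and the change in DMSO turned to 0.04. The call of 239999_at at 8 h was lost when array 2 of DMSO or array 1 or 2 of MLN4924 at 8 h was left out, and with the 8 h arrays fitted alone.

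**Figure D4:**
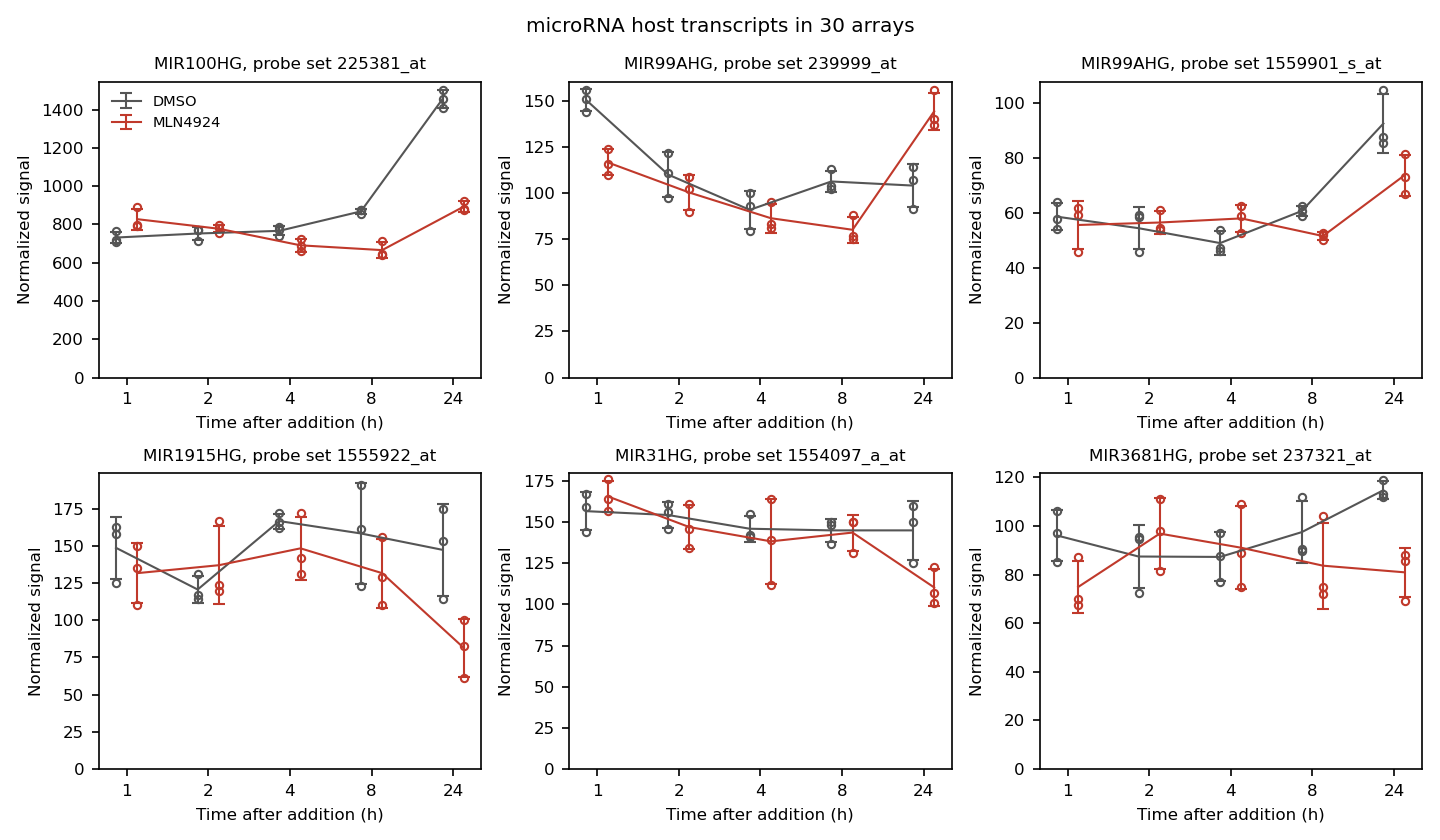
Normalized signal (vertical axis, from 0) of 6 probe sets of MIR hosts by time after addition (horizontal axis, in h) for DMSO (grey) and MLN4924 (red), with open circles for the 3 arrays per group, lines through the means and bars for the SD. For MIR100HG the DMSO arrays of 24 h (1409 to 1503) stand above all others, and the first 2 MIR99AHG panels show treated arrays above DMSO on 239999_at and below it on 1559901_s_at at 24 h.

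MIR1915HG, MIR31HG and MIR3681HG were lower with MLN4924 at 24 h, and MIR570HG at 24 h and MIR550A3HG at 8 h were higher. MIR1915HG (chr10:21492658-21497260) had signals of 175, 114 and 153 in DMSO and 83, 61.4 and 100 in MLN4924 at 24 h, without overlap (change -0.66, SE 0.15, adjusted p = 1.23e-03). Its 2 other probe sets changed by -0.21 and -0.01 without a call. MIR31HG (chr9:21454268-21559798), whose locus carries miR-31, had 160, 150 and 125 in DMSO and 107, 123 and 101 in MLN4924 at 24 h (change -0.31, SE 0.09, adjusted p = 1.13e-02). Its groups did not overlap, but the call was lost when array 1 of DMSO or array 3 of MLN4924 at 24 h was left out and with the 24 h arrays fitted alone. MIR3681HG (chr2:12007116-12578348) had 119, 112 and 113 in DMSO and 69.3, 88 and 85.4 in MLN4924 at 24 h, a change of -0.38 (SE 0.12, adjusted p = 1.53e-02) between groups that did not overlap. That call was lost when array 1 of either treatment at 24 h was left out.

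Of the MIR hosts that were higher, MIR570HG (chr3:195688498-195711875) lay close to the median signal. Its arrays at 24 h read 35.6, 28.7 and 33.8 in DMSO and 43.9, 53.7 and 53.4 in MLN4924, without overlap (change 0.35, SE 0.09, adjusted p = 5.35e-03). MIR550A3HG (chr7:29645922-29685138) had 167, 213 and 159 in DMSO and 209, 264 and 260 in MLN4924 at 8 h. These groups overlapped, and the change was 0.39 (SE 0.10, adjusted p = 1.12e-02). It was not called when array 1 or 3 of DMSO or array 2 or 3 of MLN4924 at 8 h was left out, or with the 8 h arrays fitted alone. At 24 h MIR550A3HG changed by 0.11 and was not called. With the mean over a gene's probe sets, the calls of MIR1915HG, MIR3681HG, MIR570HG and MIR550A3HG were all lost.

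The remaining 29 MIR hosts were called at no time. Those with most probe sets were MIR9-1HG, with 4, whose brightest changed by -0.10 at 24 h, and MIR124-2HG, with 3, whose brightest changed by 0.06. Of these hosts MIR3936HG had the largest change at 24 h, -0.66 (95% interval -1.41 to 0.10, adjusted p = 0.187). MIR17HG, the host of the miR-17 to miR-92a-1 cluster, had group means between 1.57 and 12.8. Over all 72 probe sets of the members, 1 was called at 4 h, 8 at 8 h and 13 at 24 h (5 higher and 8 lower), beside 2.37%, 11.6% and 28.5% of all probe sets with 1 symbol.

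In DMSO alone 6 members (12.5%) differed between 24 h and 1 h, beside 18.4% of all genes. SNHG33, SNHG19, SNHG32 and MIR100HG were higher at 24 h, and SNHG17 and MIR99AHG lower. The effect of MLN4924 differed between 8 h and 4 h for 2 members, SNHG17 (0.44, adjusted p = 4.62e-02) and SNHG33 (-0.44, adjusted p = 1.51e-02), beside 1.57% of all genes. The call of SNHG17 was lost when any of 8 arrays was left out (4 h: 1 and 3 of DMSO, 1 and 3 of MLN4924; 8 h: 1 of DMSO, 1, 2 and 3 of MLN4924), and that of SNHG33 when array 2 of MLN4924 at 4 h or array 1 at 8 h was. Both were lost with the 4 h and 8 h arrays fitted alone, and without _x_at and _s_at probe sets the difference of SNHG17 was 0.14. The effect differed between 24 h and 8 h for 5 members (10.4%), beside 19.5% of all genes: SNHG32, SNHG17 and MIR99AHG upwards, SNHG33 and MIR100HG downwards.

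Many well known hosts lie outside the rule, because their probe sets list the embedded small RNAs beside the host. Other probe sets list a host with another gene and no embedded small RNA, such as SNHG4 with MATR3 or MIR4435-2HG with CYTOR. Both kinds together made 63 probe sets, and 26 hosts (13 SNHG genes and 13 MIR hosts) were listed on such probe sets alone. In a fit of all 54675 probe sets, 6 of the 63 were called at 4 h, 10 at 8 h and 28 (44.4%) at 24 h, beside 2.05%, 9.74% and 24.8% of all probe sets. Of the 6 calls at 4 h 3 were lost without array 2 of DMSO at 4 h, 3 without array 3 of MLN4924 at 4 h and 5 with the 4 h arrays fitted alone. Of the 28 at 24 h 22 were higher and 6 lower, beside 6679 higher and 6878 lower among all 54675 probe sets. These shares were not set beside those of probe sets of like signal. In DMSO from 1 h to 24 h, 3 of the 63 were higher and 15 lower (28.6% called), beside 11.9% of all probe sets (3387 higher and 3125 lower). What each of them measures among its listed RNAs is not settled by the annotation.

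The probe set 223774_at, which lists SNHG12 with SNORA16A, SNORA61 and SNORA44, read 278, 259 and 282 in DMSO and 3093, 3045 and 2719 in MLN4924 at 24 h. It changed by 3.29 (SE 0.10, adjusted p = 1.22e-17), and 223773_s_at with the same symbols by 2.98 (SE 0.09). Another probe set with the same symbols, 228990_at, read 410, 390 and 385 in DMSO and 374, 388 and 421 in MLN4924, with a 95% interval of the change from -0.12 to 0.11. The probe set of SNHG15 with SNORA9 read 282, 254 and 272 in DMSO and 1672, 1815 and 1994 in MLN4924 at 24 h, a change of 2.62 (SE 0.10, adjusted p = 3.26e-16). That of SNHG1 with 8 snoRNAs read 2925, 2947 and 2979 in DMSO and 6571, 6285 and 6748 in MLN4924, a change of 1.14 (SE 0.05, adjusted p = 1.45e-14). In each of these but 228990_at the treated arrays of 24 h lay above the DMSO arrays of that time.

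GAS5 was listed with 8 snoRNAs on 4 further probe sets, which did not move alike. At 24 h 224741_x_at and 224841_x_at changed by 0.79 (SE 0.07) and 0.77 (SE 0.06), 228238_at by 0.46 (SE 0.07) and 227517_s_at by 0.15 (SE 0.06, adjusted p = 0.0606, not called). At 8 h 227517_s_at fell, from 4049, 3855 and 3903 in DMSO to 3151, 2972 and 3082 in MLN4924 (change -0.36, adjusted p = 1.33e-04), a call lost with median centring, where the change was -0.10. Both probe sets of MIR9-2HG with MIR9-2 were lower at 4 h, 8 h and 24 h. The call at 4 h was lost for both with the 4 h arrays fitted alone, and for 238850_at also without array 1 of MLN4924. On 230272_at the signals at 24 h were 166, 129 and 132 in DMSO and 39.7, 15 and 18.1 in MLN4924, a change of -1.65 (SE 0.14, adjusted p = 9.27e-10), or -2.62 with 1 added to the signal in place of 32. MIR23AHG was listed with MIR23A and MIR24-2 on 2 probe sets that gave different answers. On 1555847_a_at it was lower with MLN4924 at 4 h (change -0.75, adjusted p = 4.61e-05) and 8 h (-0.76, adjusted p = 1.25e-05), and at 24 h it changed by 0.13 without a call. On 235317_at the groups overlapped at all 5 times, with changes of -0.20 at 4 h, -0.17 at 8 h and -0.10 at 24 h and no call.

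**Figure D5:**
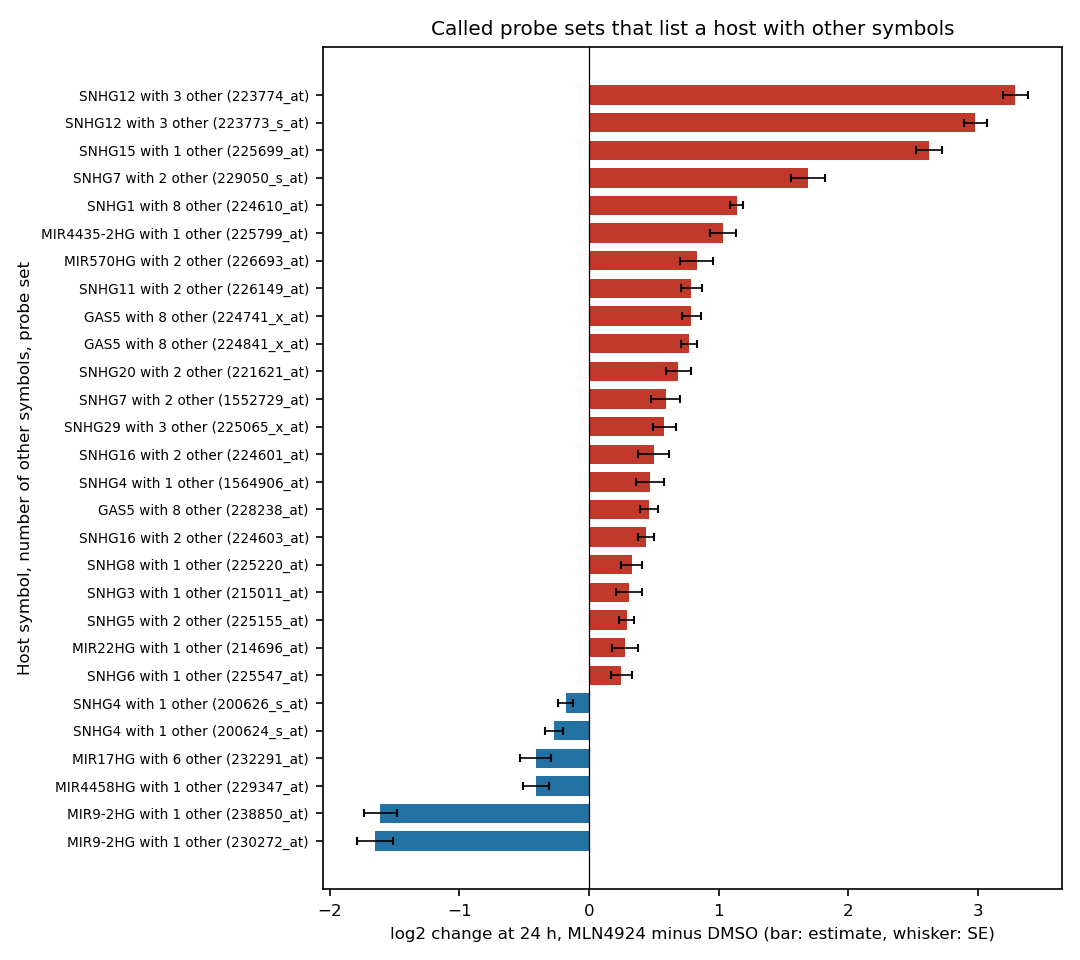
The log2 change at 24 h (horizontal axis, bars with SE whiskers, from 3 arrays per group) of the 28 called probe sets that list a host with other symbols, named on the vertical axis by host, number of other symbols and probe set. Bars of 22 probe sets point to higher signals with MLN4924, up to 3.29, and 6 to lower signals, down to -1.65.

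Lists of related genes were described by their counts at 24 h, beside 34% called and a median change of 0.003 over all genes. Of the genes above the median signal 50.4% were called, and of the lists 40% to 60%. A list counts only genes with a probe set of 1 symbol, each by its brightest, and their other probe sets are not described. Listed genes without such a probe set, among them many of the snoRNA hosts, are left out. Of 17 proteins of snoRNA particles and their assembly 9 rose and 0 fell (median 0.359), among them ZNHIT6 (from 390 ± 14.2 to 817 ± 29.3, SD, n = 3, change 1.01), an assembly factor of box C/D particles, and NOLC1 (change 0.85), a chaperone of snoRNA particles in the nucleolus. NUFIP1 (0.93) and RUVBL1 (0.69), which take part in the same assembly, rose as well. Of 20 protein-coding snoRNA hosts 7 rose and 1 fell (median 0.099), among them WDR43 (1.12), a factor of ribosome assembly, HSPA9 (0.77), a mitochondrial chaperone, TAF1D (0.48), a subunit of the RNA polymerase I selectivity factor, and RNF149 (0.34).

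Of 17 proteins that process or use microRNAs 5 rose and 5 fell (median -0.033). DDX5, a helicase of the Drosha complex, rose by 0.97, LIN28B, which blocks let-7 maturation, by 0.93 and AGO1 by 0.71, while TNRC6B, a silencing partner of Argonaute, changed by -0.72. Of 36 protein-coding microRNA hosts 11 rose and 7 fell (median 0.005), with DNM3 (-1.89), a dynamin, and AOPEP (-1.17) lower and GPC1 (1.57), a cell-surface proteoglycan, and RCL1 (1.36) higher. GPC1 was dim in DMSO at 24 h, with signals of 9.5 to 32.6, below the median signal. Of 11 factors of nonsense-mediated decay 5 rose and 1 fell (median 0.27), with SMG5 at 1.00, SMG9 at 0.97, DHX34 at 0.89 and UPF2 at 0.84. DHX34 was also dim in DMSO at 24 h (11.9 to 56.9). Of 15 regulators of mTORC1 and of terminal oligopyrimidine transcripts 6 rose and 3 fell (median 0.192). MYC, a transcription factor that drives ribosome synthesis, rose from 157 ± 10.6 to 801 ± 9.57 (SD, n = 3, change 2.14), and SESN1 (1.71) and SESN2 (1.40), stress-induced inhibitors of mTORC1, rose as well, while SESN3 changed by -1.48.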

How the data were processed

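Per the submitters' processing notes, the authors used Affymetrix Expression Console (algorithm and version: not given in the sources used here). Deposited values are in the unit intensity, a linear signal per probe set scaled by the authors to a mean of 150.02 on every array after trimming 2% at each end. No detection calls were used. Samples were grouped by the treatment and time in their titles.

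Signals were quantile-normalized and transformed as log2(signal + 32). A gene was represented by its single-symbol probe set of highest mean. Groups were fitted in limma 3.58.1 (R 4.3.3) as 1 mean per group over 30 arrays (20 residual degrees of freedom, prior 3.04), two-sided, with Benjamini-Hochberg adjustment per comparison. Fits of all 41097 probe sets with 1 symbol and of all 54675 gave probe set values. The fit was tested on simulated data. The number of arrays limits the precision. Alternatives were the scaling, pseudocount, filter, choice of probe set, samples in the fit, covariates, adjustment and each array left out.

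Each member called with MLN4924 at any time was named with its array values. Of each related list the 4 called genes with the largest change at 24 h were named, and of other members those of extreme level or change or with 3 or more probe sets. Members and lists were chosen with earlier results of these data known. Same-numbered arrays of both treatments did not deviate together (correlations -0.106 to 0.0728 over 15 pairs), so numbers were not used as pairs. Sequences and coordinates are from RefSeq tables of GRCh38.p14.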

Additional observations from a re-analysis of the deposited data

Results flagged for a closer look

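The effect of MLN4924 differed between times by the limma test of that difference for 5 host transcripts. From 4 h to 8 h 2 of 48 members (4.17%) differed, beside 1.57% of all genes. From 8 h to 24 h 5 (10.4%) differed, beside 19.5% of all genes. From 4 h to 8 h the log2 effect grew by 0.44 for SNHG17 and changed by -0.44 for SNHG33. These calls were kept in 9 and 17 of 22 settings, and the difference of SNHG17 was as low as 0.14. From 8 h to 24 h it grew by 1.40 for SNHG32, 0.75 for SNHG17 and 0.68 for MIR99AHG, and changed by -0.52 for SNHG33 and -0.32 for MIR100HG, where it was -0.14 and not called with the mean over its probe sets. The differences from 8 h to 24 h share the 8 h arrays with those from 4 h to 8 h. For SNHG33 the DMSO mean went from 370 at 8 h to 523 at 24 h and the treated mean from 196 to 188. For MIR99AHG the 2 effects have opposite signs on the probe set 239999_at, and its 1559901_s_at was lower with MLN4924 at 24 h. Groups of 3 arrays were too small for a test of outlying samples.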

How the results depend on the processing

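SNHG32, SNHG17, SNHG33 and MIR100HG kept their calls at 24 h under all alternatives run for them, with log2 changes of 1.64 to 1.85, 1.23 to 1.42, -1.48 to -1.27 and -0.71 to -0.35. Of 154 counts of called members recomputed under alternatives 130 lay within 1.5 times the main count. A count of 0 beside a main count of 0, as at 1 h and 2 h, was taken as within. At 8 h (6 called) the count was 3 with the mean over a gene's probe sets and 3 with only the groups compared, and 3 to 5 with 1 array left out, lowest without array 2 of MLN4924 at 8 h. At 4 h (1 called) it was 0 with only the groups compared, 2 with the ACTB ratio as covariate and 2 when adjusted over the 5 comparisons together, which also gave 3 at 1 h. For the effect at 8 h against 4 h (2 called) it was 1 with median centring, with a pseudocount of 1 or 16, with the mean over probe sets, without _x_at and _s_at probe sets, over all probe sets with 1 symbol and with the ACTB covariate, 0 with only the groups compared, and 0 to 2 with 1 array left out. Of 533 recomputed changes of named members 481 kept their call, 51 lost it and 1 reversed: MIR99AHG in DMSO from 1 h to 24 h, to 0.04 with the mean over probe sets. SNHG17 at 8 h against 4 h lost its call in 13 of 22 settings and SNHG33 in 5 of 22. SNHG19 and SNHG32 have no value without _x_at and _s_at probe sets. The replicate block moved no count of called members (10 at 24 h with it). Of the recomputed changes of probe sets that list a host with other symbols, under alternatives chosen after seeing the data, 328 kept their call, 23 lost it and 0 reversed. They cover 27 calls, on probe sets that list GAS5, were called at 4 h, or were called at 24 h with an absolute log2 change of at least 1. Calls on the other such probe sets, with smaller changes at 24 h, were not recomputed. The 30 members at or below the median signal, with changes compressed by the added 32, limit what could be called.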

Other observations

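Other probe sets that list a host with other symbols had values at 24 h not described above. SNHG7 with SNORA17A and SNORA17B changed by 1.69 on 229050_s_at and 0.59 on 1552729_at. MIR4435-2HG with CYTOR changed by 1.03, SNHG11 with SNORA60 and SNORA71E by 0.79, SNHG20 with MIR6516 and SCARNA16 by 0.69 and SNHG29 with its 3 snoRNAs by 0.58. MIR570HG with SDHAP1 and SDHAP2 changed by 0.83. The probe sets of SNHG16 (0.50 and 0.44), SNHG8 (0.33), SNHG3 (0.31), SNHG5 (0.29) and SNHG6 (0.25) were higher by less. Of 3 called probe sets that list SNHG4 with MATR3, the messenger RNA of a nuclear matrix protein, 1564906_at was higher by 0.47 and 200624_s_at and 200626_s_at changed by -0.27 and -0.18. The probe set 232291_at, which lists MIR17HG with its 6 microRNAs, changed by -0.41 between overlapping groups.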
